A study of Homo sapiens with 2 samples.

Results

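The transcripts of 10 human genes were examined for contacts with RBMS3, an RNA-binding protein, in MDA-MB-231 cells, an established human cell line from a triple-negative breast tumour. The genes encode the protein coat of caveolae (CAV1, CAV2, CAVIN1 and CAVIN3), the YAP and TAZ coactivators with a DNA-binding partner (YAP1, WWTR1 and TEAD1), and widely used targets of these coactivators (CCN1, CCN2 and AMOTL2). The sites were chosen by gene name, as every listed RBMS3 site that lay on the strand of one of the 10 genes in GENCODE release 44. This gave 119 of 27706 listed sites, in 32 of 16060 clusters, where a cluster joins neighbouring sites no more than 50 nt apart on one strand. No site fell in more than 1 of the genes, and 0 sites lay on their opposite strand.

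The data come from cross-linking and immunoprecipitation sequencing (CLIP-seq) of 1 group with 2 biological replicates, both of MDA-MB-231 cells that were stably transduced with a lentiviral vector carrying RBMS3 with an N-terminal FLAG tag. The tagged protein came from the vector and was not the endogenous one, the cells keep their own RBMS3 gene, and no library of untagged cells or of total RNA was analysed here. Ultraviolet light fixed the protein to RNA, beads against FLAG recovered it, and the RNA was tailed with poly(A), captured and reverse transcribed through oligo(dT). A site is a base that was missing from some of the sequenced RNA fragments, called tags, and the list gives for each site the tags that cover it and the tags with the deletion, pooled over both replicates. No value therefore carries an error between replicates. The title of replicate 2 names MDA-MB-231, while its cell line label reads MDA-MB-232. Of all protein-coding genes, 37.6% had a listed site. All 5 markers listed for a mesenchymal line, VIM, CD44, AXL, MSN and ANXA1, had sites (70 in all). Of 7 luminal or epithelial markers 2 had a site, not far from the share of all genes. These were GATA3 (47 of 744 tags deleted) and EPCAM (20 of 20), with 1 site each, and ESR1, PGR, ERBB2, FOXA1 and CDH1 had none. The identity of the cells was not tested by these counts.

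Caveolae are small flask-shaped pits of the plasma membrane. Caveolins insert into the membrane and cavins assemble around them, and the coat flattens when the membrane is stretched. YAP (from YAP1) and TAZ (from WWTR1) are coactivators that the Hippo kinases keep out of the nucleus; in the nucleus they bind TEAD factors and switch on genes such as CCN1 and CCN2, which encode secreted matrix proteins, and AMOTL2, whose product binds YAP and holds it back. The 3′UTR, the stretch between the stop codon and the poly(A) tail, is where many RNA-binding proteins act on the life span of an mRNA, and the hexamer AATAAA, written here with T for U, is the main signal for cutting and tailing it.

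The sequences at the leading site, the base with the most deletions, are shown for all 18 clusters whose leading site lies in a 3′UTR and has the deletion in under 30% of its tags. Each is 29 nt of hg38 on the transcript strand, 5′ to 3′, its 15th letter is that base, and capitals mark the poly(A) signal AATAAA or its common variant ATTAAA where the 29 nt hold a whole one.
CAV1, internal cluster, chr7:116559572-116559600: ttgttgaaaggtaatttgagagaaatatg
CAV1, cluster at the end of the transcript, chr7:116561153-116561181: gcacAATAAAaatgtttaacggttaaaca
CAV2, the third cluster, chr7:116506796-116506824: ttatatttatgttgttgaactaatatatg
CAV2, internal cluster, chr7:116506894-116506922: atttgtacatcttctttggaAATAAAaga
CAV2, the fifth cluster, chr7:116508301-116508329: ctgtAATAAAactgtttgacttctcaagt
CAV2, cluster at the end, chr7:116508513-116508541: gaattcatAATAAAttttctaaaagccta
CAVIN1, chr17:42402457-42402485: gagcagcccgaccAATAAAcctgcttttc
CAVIN3, chr11:6318952-6318980: tgcgctcaccatcAATAAAagtaatttca
YAP1, most covered site, chr11:102232710-102232738: ttacAATAAAccaattttataatctttaa
WWTR1, the second cluster, chr3:149518506-149518534: gcactatttctttttgtcttttgttagca
WWTR1, cluster at the end, chr3:149517230-149517258: aaAATAAAgacaattgaacttccacttgg
TEAD1, the fourth cluster, chr11:12943889-12943917: gactgcagacaaggaaaaaaaaagtaaaa
TEAD1, the fifth cluster, chr11:12944434-12944462: tgaaaattataggatttgtgtgcagagaa
TEAD1, the sixth cluster, chr11:12944672-12944700: agctttctagaaactttgtattcatacgg
CCN1, the first cluster, chr1:85583668-85583696: tatggaattaaccatttAATAAAgaaata
CCN1, the second cluster, chr1:85583916-85583944: attgtatgaagcacAATAAAgattctgaa
CCN2, cluster at the end, chr6:131948197-131948225: catgtttgcacctttctagttgaaaataa
AMOTL2, chr3:134355885-134355913: gtataacagtattttaATTAAAaaaaaat
CAVIN1, CAVIN3, WWTR1, CCN2 and AMOTL2 are on the minus strand of their chromosomes, and the others on the plus strand.

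A second set of sequences is shown because it follows member clusters that hold no poly(A) signal. These are runs of A, in capitals, that are part of the transcript itself and lie within 60 nt downstream of the leading site of the cluster.
CAV1, after the internal cluster, chr7:116559608-116559636: gaggaggAAAAAAAAAAAAAAgaaaagaa
TEAD1, after the fourth cluster, chr11:12943937-12943965: gaaaatgacAAAAAAAAAAtttgtaacat
TEAD1, after the fifth cluster, chr11:12944476-12944504: tgctttgtAAAAAAAAAAAAAtgtattct

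All 10 genes had a site, and in each of them at least 1 site had the deletion in under 30% of its tags. Of 20033 protein-coding genes, 7533 had a site (37.6%). More than 10 sites were found in CAV1, CAV2, TEAD1, CCN1 and CCN2, that is in 5 of the 10 genes, compared with 385 of the 7533 genes with a site (5.11%). The 10 genes were chosen with earlier results of these data known, so neither contrast measures an enrichment. The 20033 genes were not filtered by expression in these cells. The caveola genes together held 52 sites in 13 clusters, the 3 regulators 28 sites in 13 clusters, and the 3 targets 39 sites in 6 clusters. The deletions summed over these sites were 12974 for the caveola genes, 2942 for the regulators and 11731 for the targets.

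Pooled over the 10 genes, the member sites were deeply covered, but the depth differed widely by gene. The median tags per site were 45817 in CCN1, 45777.5 in CAV1 and 39229 in CCN2, which hold 22, 32 and 13 sites. In the other 7 genes the median ran from 62 in YAP1 to 15292 in CAVIN3. A member site was covered by a median of 15229 tags (range 10 to 97102), against 2883.5 over the whole list, and carried a median of 83 deletions (range 8 to 3572), against 54. Deletions were found in a median of 1.04% of the tags at member sites and of 2.95% over the list. Deletions were in under 30% of the tags at 105 of the 119 member sites (88.2%), against 70.1% of the list. These 105 sites had 319 to 97102 tags (median 23674). The other 14 had 10 to 81 tags (median 18.5), so none of the high percentages rested on deep coverage. The 95% Wilson intervals given for single sites cover counting error only.

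**Figure D1:**
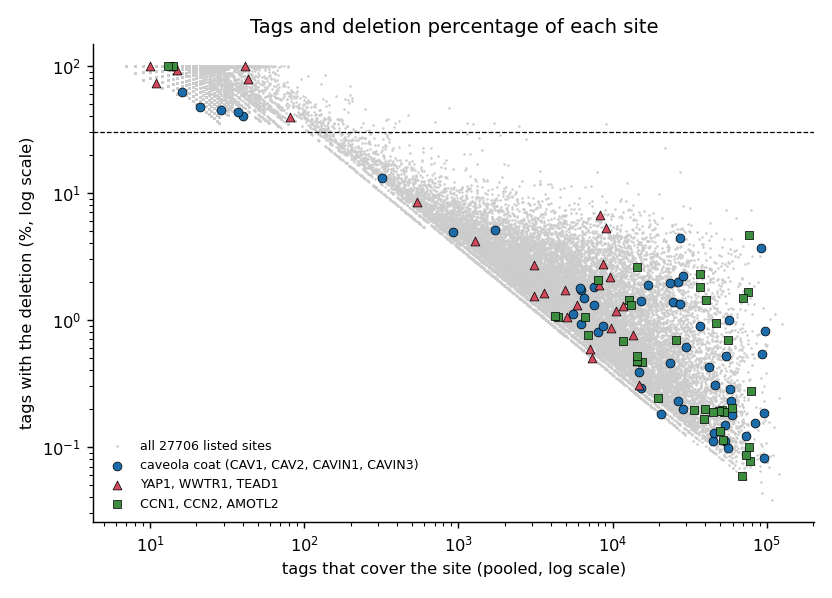
Each point is a listed site, with the pooled tags that cover it on the x axis and the percentage of those tags with the deletion on the y axis (both log scales). Grey points are all 27706 sites, blue circles the caveola genes, red triangles YAP1, WWTR1 and TEAD1, green squares CCN1, CCN2 and AMOTL2, and the dashed line marks 30%. Most member sites lie at the right, with many tags and few deletions per tag, and the 14 member sites above the line all have 81 tags or fewer.

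CAV1, which encodes the main caveolin of non-muscle cells, was the most heavily covered member. The gene lies at chr7:116524994-116561179 on the plus strand, and its 3′UTR is 1892 nt long in the representative transcript, the single transcript that Ensembl marks as canonical. It held 32 sites in 5 clusters with 9331 deletions, which ranked 4 by sites and 3 by deletions among the 7533 genes. Nearly all of these lay in 2 dense clusters. The internal one had 14 sites across 90 nt, with 1725 to 58312 tags per site, and the one at the end had 15 sites across 81 nt, with 8043 to 97102 tags. At its most covered site the end cluster had 1.67 times as many tags as the internal one (95% interval 1.65 to 1.68). Summed over their listed sites, the deletions were 6968 in the end cluster and 2324 in the internal one.

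The leading site of the CAV1 end cluster, at 116561167, was deleted in 3356 of 91392 tags (3.67%, interval 3.55 to 3.80%) and ranked 8 by deletions in the whole list. It is a T that lies 12 nt before the end of the representative transcript and 10 nt after the first base of the AATAAA printed above. By number of deletions the next site in that cluster was listed at the first A of the signal itself. It had the deletion in 788 of 97102 tags (0.812%, interval 0.757 to 0.870%). The letter after this A is also A, so the deletion cannot be placed to a single base. By percentage the next was a T upstream of the signal, at 116561116, with 637 of 28795 tags (2.21%, interval 2.05 to 2.39%). The leading site of the internal cluster, at 116559586, was deleted in 565 of 56665 tags (0.997%, interval 0.919 to 1.08%). It lies 1593 nt before the end of the representative transcript but 47 nt before the end of another annotated one. The 51-nt windows of this cluster held no AATAAA, and 29 nt after its leading site begins the run of 14 A shown above. The remaining 3 CAV1 sites were shallow. They were deleted in 10 of 16, 16 of 40 and 13 of 29 tags, and the first 2 of them lie in coding sequence of the representative transcript and in a 3′UTR only of other transcripts.

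CAV2 encodes a caveolin that needs caveolin-1 to reach the membrane, and lies next to CAV1 on the same strand, at chr7:116287380-116508541. It had 14 sites in 6 clusters, 13 of them in the 3′UTR of 2420 nt and 1 in coding sequence. In CAV2 the leading site with the most deletions was in an internal cluster, unlike in CAV1. Its 7 sites had 8615 to 29736 tags, and the leading one, at 116506908, was deleted in 1195 of 27314 tags (4.38%, interval 4.14 to 4.62%). This T lies 1633 nt before the nearest annotated end and 6 nt before the first base of an AATAAA. The cluster at the end had 3 sites with 5541 to 6225 tags, and its leading site was deleted in 109 of 6171 tags (1.77%, interval 1.47 to 2.13%), 14 nt before the end. The internal cluster exceeded it 4.78-fold in tags at the most covered site (interval 4.65 to 4.91), and the deletion percentages of the leading sites had intervals that did not overlap. A further site with 45 deletions in 920 tags lay 226 nt before the end, 10 nt after the first base of an AATAAA.

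The cavin genes had fewer sites, each in a single cluster at the end of the transcript. CAVIN1 (chr17:42402449-42423256, minus strand), which encodes the cavin required for caveolae to form, had 2 sites. They were deleted in 98 of 7549 tags (1.30%, interval 1.07 to 1.58%) and 96 of 6486 tags (1.48%, interval 1.21 to 1.80%), and these intervals overlap. CAVIN3 (chr11:6318946-6320532, minus strand) has a 3′UTR of only 217 nt. Its 4 sites had 14891 to 17000 tags, and the leading one was deleted in 320 of 17000 (1.88%, interval 1.69 to 2.10%). In both genes the leading deletion is listed at the second letter of the AATAAA, 22 nt before the end in CAVIN1 and 20 nt in CAVIN3. The letter before it is also A, so this deletion cannot be placed to a single letter of the signal.

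**Figure D2:**
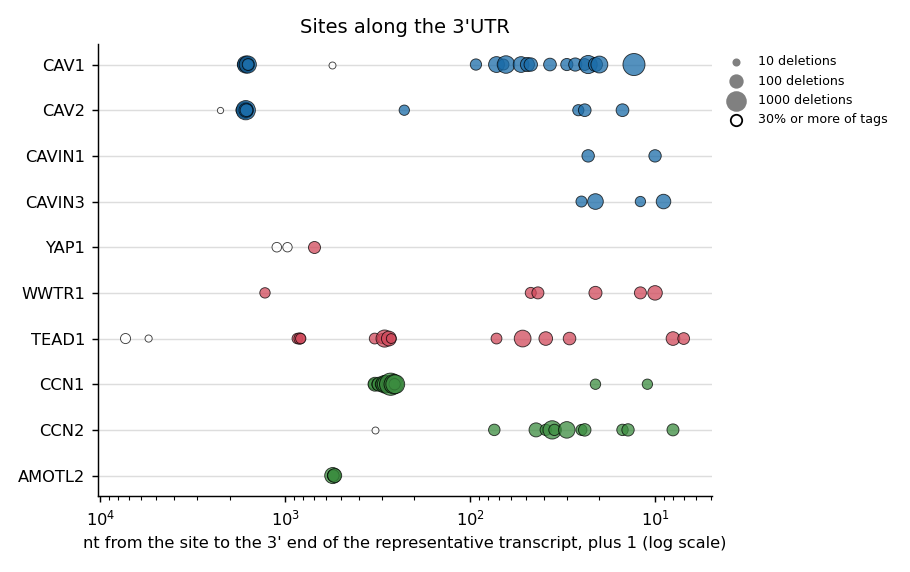
Each row is a gene, and each circle a site in the 3′UTR of the representative transcript. It is placed by its distance to the 3′ end of that transcript plus 1 nt (log scale, the end at the right). This draws 112 of the 119 member sites and leaves out those in coding sequence or introns of that transcript. The diameter grows with the logarithm of the deletions, and open circles are sites with the deletion in 30% or more of their tags. CAV1 has both an internal group and one at the end, the main CAV2 and CCN1 groups are internal, and YAP1 has no site near its end.

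YAP1 (chr11:102110447-102233424, plus strand) was the least covered of the 10 genes, with 4 sites that stand alone. The only one under 30% was the T at 102232724, deleted in 84 of 3091 tags (2.72%, interval 2.20 to 3.35%). It lies in the 3′UTR 700 nt before the end of the representative transcript, 10 nt after the first base of an AATAAA, and no annotated end is closer than 699 nt. The others were deleted in 34 of 43, 32 of 81 and 10 of 10 tags, the last of these in an intron.

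WWTR1 (chr3:149517235-149736714, minus strand), the gene for TAZ, had 7 sites. In its cluster at the end, 5 sites had 3577 to 10501 tags, and the leading one, at 149517244, was deleted in 209 of 9681 (2.16%, interval 1.89 to 2.47%). It lies 9 nt before the end and 12 nt after the first base of the AATAAA. Another site, at 149518520 and 1285 nt before the end, was deleted in 46 of 539 tags (8.53%, interval 6.46 to 11.2%), and an intronic site in 8 of 11.

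TEAD1 (chr11:12674421-12944737, plus strand), which encodes the DNA-binding partner, has the longest 3′UTR of the set, 7515 nt, and held 17 sites in 6 clusters. Most of its deletions lay in the last 2 clusters. The leading site of the fifth, at 12944448, was deleted in 552 of 8302 tags (6.65%, interval 6.13 to 7.21%), and that of the sixth, at 12944686, in 481 of 9035 (5.32%, interval 4.88 to 5.81%). The first of these lies 289 nt before the end of the representative transcript and 35 nt before the end of another, and that shorter end sits directly before the run of 13 A shown above. The second lies 51 nt before the end, with an AATAAA that begins 26 nt after it. The sixth cluster exceeded the fifth 1.56-fold in tags at the most covered site (interval 1.52 to 1.60), while the leading site of the fifth had the higher deletion percentage, with intervals that did not overlap. The fourth cluster had 3 sites with up to 14800 tags and 45 to 68 deletions each. Each of these 3 is a deleted A beside another A, so none of these deletions can be placed to a single base. The other 3 TEAD1 sites were deleted in 14 of 14, 41 of 41 and 14 of 15 tags, the first of them in an intron.

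CCN1 (chr1:85580761-85584589, plus strand) encodes a secreted matrix protein and an early target of YAP. It had 22 sites, all in its 3′UTR of 908 nt and all under 30%, with 8946 deletions, which ranked 6 among the genes with a site. Its first cluster had 20 sites across 79 nt with 6969 to 78919 tags. The leading site, the T at 85583682, was deleted in 3572 of 77215 tags (4.63%, interval 4.48 to 4.78%), the most of any member site and rank 7 in the whole list. It lies 268 nt before the end of the representative transcript and 3 nt before the first base of the AATAAA. Another 2 sites of this cluster had over 1000 deletions, 1256 of 75551 tags (1.66%) and 1036 of 69968 (1.48%). The second cluster, at the annotated end, had 2 sites with 46 of 4401 and 45 of 4217 tags deleted. The first cluster exceeded the second 17.9-fold in tags at the most covered site (interval 17.4 to 18.5), and the second is the nearer to the end of the representative transcript.

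CCN2 (chr6:131948176-131951372, minus strand) encodes connective tissue growth factor. It had 13 sites, of which 11 formed a cluster of 67 nt at the end of the transcript with 6610 to 53003 tags. The leading site, the T at 131948211, was deleted in 844 of 37012 tags (2.28%, interval 2.13 to 2.44%), 35 nt before the end and 10 nt before the first base of an AATAAA. The other 2 sites, 1 of them in coding sequence, were deleted in 14 of 14 and 13 of 13 tags.

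AMOTL2 (chr3:134355347-134375479, minus strand) encodes angiomotin-like 2. Its 4 sites formed a single cluster of 14 nt with 13209 to 14420 tags, and the leading T, at 134355899, was deleted in 378 of 14420 (2.62%, interval 2.37 to 2.90%). It lies 552 nt before the end of the representative transcript and 22 nt before the end of another one. No AATAAA was within 25 nt. An ATTAAA begins 2 nt after the deletion and runs into 9 A, as printed above. These 4 positions also lie in an intron of the annotated pseudogene RPL39P5 on the same strand, so the list alone does not assign them to AMOTL2.

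**Figure D3:**
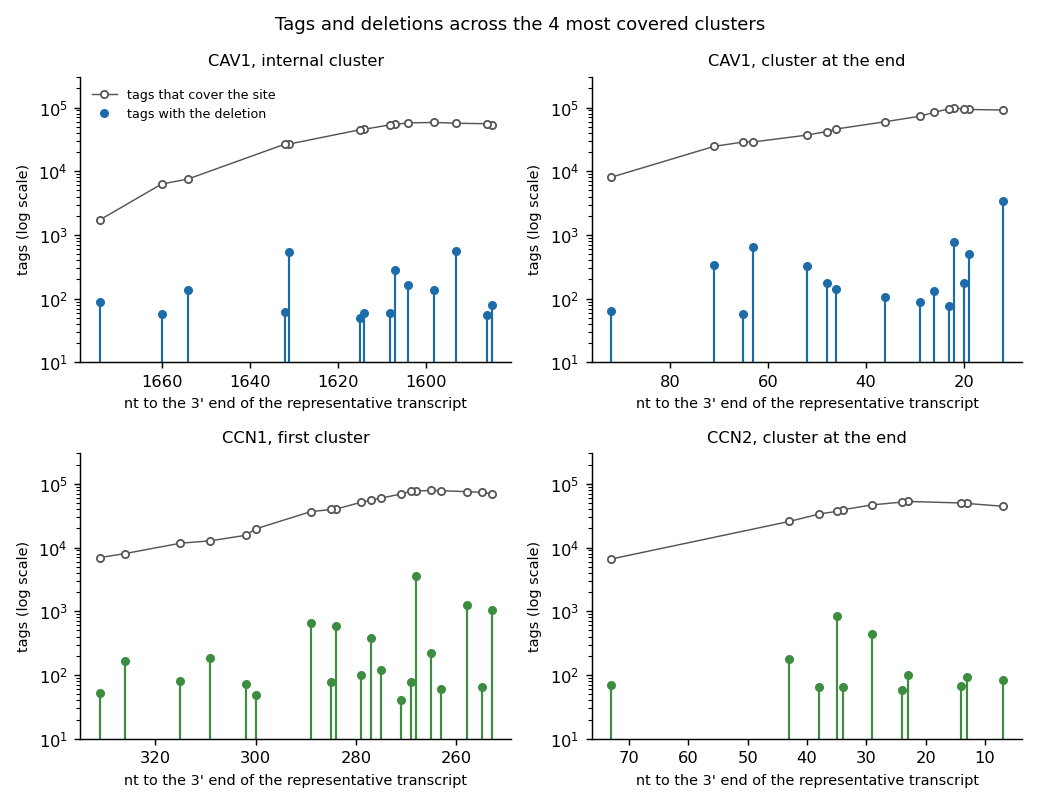
The 4 most covered member clusters, with distance to the 3′ end of the representative transcript on the x axis and tags on the y axis (log scale). Open circles joined by a line are the tags that cover each site and filled circles the tags with the deletion. Coverage rises along most of each cluster, in places steeply, from 1725 to 58312 tags in the internal CAV1 cluster. Deletions can jump between listed positions of nearly equal coverage, as from 77 to 3572 at adjacent positions of CCN1 with 76993 and 77215 tags. The latter position is the first T of a run of T, so its deletions cannot be placed to a single base.

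Sites of the same cluster often differed in how often they were deleted. Of 517 pairs of member sites in the same cluster, at any distance, 427 (82.6%) had Wilson intervals of the deletion percentage that did not overlap, against 71.9% of such pairs in the list. At directly adjacent bases it was 8 of 12 pairs (66.7%), against 65.0% in the list. Wilson intervals narrow as tags rise, and the median tags per site were 15229 for members and 2883.5 for the list. The part that depth plays in the gap at any distance was not tested. Larger clusters also give more pairs, and the largest member clusters were in CCN1 (20 sites) and CAV1 (15 and 14 sites). These shares therefore do not set the members apart from the list. In CCN1 the base directly before the leading T was deleted in 77 of 76993 tags (0.100%), compared with 4.63% at the T. That T opens a run of T, so its deletion cannot be placed to a single base of the run, and the contrast is not between single bases. The deleted base was a T at 68 of 119 member sites (57.1%), against 63.2% of the list. This share was 40.7% at the 59 member sites under 1%, 76.1% at the 46 sites from 1% to under 30% and 64.3% at the 14 sites at 30% or more. The corresponding shares in the list were 43.2%, 77.0% and 58.8%, so the share was highest in the middle class in both. At 86 member sites (72.3%) a neighbouring base was the same as the deleted one, against 80.6% of the list, and at such sites the deletion cannot be placed to a single base.

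The 10 genes were also ordered by the tags at their most covered site, which were 97102 in CAV1, 78919 in CCN1, 53003 in CCN2, 29736 in CAV2, 17000 in CAVIN3, 14800 in TEAD1, 14420 in AMOTL2, 10501 in WWTR1, 7549 in CAVIN1 and 3091 in YAP1. Exact Poisson intervals of neighbours in this order overlapped only for TEAD1 (14563 to 15040) and AMOTL2 (14186 to 14657). Tags depend on how much of a transcript a cell holds as well as on how much of it RBMS3 touched, and these cannot be told apart in the list.

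The number of sites moved with this depth. Among the 84 genes whose most covered site had 50000 tags or more, the median was 15 sites (quartiles 11.75 and 22), and CAV1 had 32, CCN1 22 and CCN2 13. Among the 1298 genes from 10000 to under 50000 tags the median was 7 (quartiles 5 and 10). There CAV2 with 14 and TEAD1 with 17 lay above the upper quartile, WWTR1 had 7, and CAVIN3 and AMOTL2 had 4 each. CAVIN1 with 2 sites and YAP1 with 4 belong to the 3680 genes from 1000 to under 10000 tags, where the median was 3. Of the 10 genes, CAV1, CAV2 and TEAD1 had more sites than the upper quartile of genes of like coverage, and CAVIN1, CAVIN3, CCN2 and AMOTL2 fewer than the median.

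**Figure D4:**
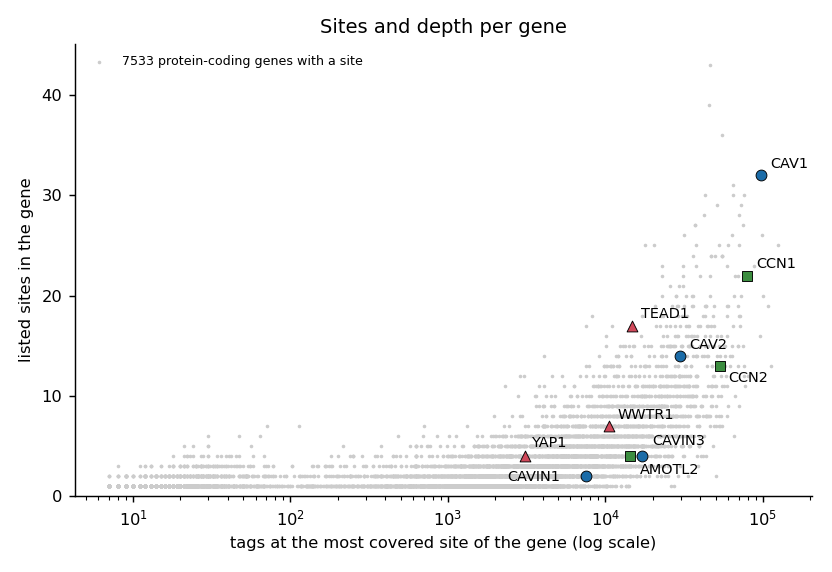
Each point is a protein-coding gene with a site, with the tags at its most covered site on the x axis (log scale) and its number of listed sites on the y axis. Grey points are all 7533 genes and the labelled symbols the 10 members. Genes with more tags have more sites, with CAV1 (32 sites) near the upper edge and CAVIN1 (2 sites) near the lower.

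Most of the sites were in 3′UTRs and near annotated ends. A 3′UTR of any annotated transcript held 114 of the 119 member sites (95.8%), against 76.6% of the list. The list also holds sites outside genes, which the choice by gene leaves out of the members, so part of this gap follows from that choice. Introns held 3 of the others, in YAP1, WWTR1 and TEAD1, and coding sequence 2, in CAV2 and CCN2, and each of these 5 had the deletion in 30% or more of its tags. Of the 3′UTR sites, 76 of 114 (66.7%) lay within 100 nt of an annotated end, close to the 69.3% of all 3′UTR sites. The median distance to the nearest end was 46.5 nt (quartiles 20 and 247.25) for members and 34 nt for the list. At least 1 such site was present in 9 of the 10 genes, all but YAP1, against 81% of genes with a 3′UTR site. The first 6 sites of the CCN1 cluster count as near an end only through a transcript with a retained intron. When the end of the representative transcript alone was used, the share of members fell to 42.1%, because the internal CAV1 cluster, the fifth TEAD1 cluster, AMOTL2, these CCN1 sites and 1 CAV2 site no longer counted.

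Around member sites the poly(A) signal had a share close to that of the whole list. The 51-nt window centred on the deletion held AATAAA at 56 of 119 member sites (47.1%), against 46.4% of the list, and the count ran from 15 in CCN1 and 10 in CCN2 to 0 in AMOTL2. The share was 64.1% over the 3 targets, 44.2% over the caveola genes and 28.6% over the regulators. Windows of neighbouring sites overlap, so 1 signal is counted many times, and the target share comes from CCN1 and CCN2 alone. These shares therefore do not rank the 3 groups. With 1 window per cluster the share over all members was 34.4%. Of the 14 member sites at 30% or more 0 had it, against 19.7% of the 8280 such sites in the list. Relative to the nearest signal, the deletion came before it at 26 of the 56 sites (46.4%), inside it at 11 (19.6%) and after it at 19 (33.9%), and the corresponding shares in the list were 45.5%, 17.2% and 37.3%.

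**Figure D5:**
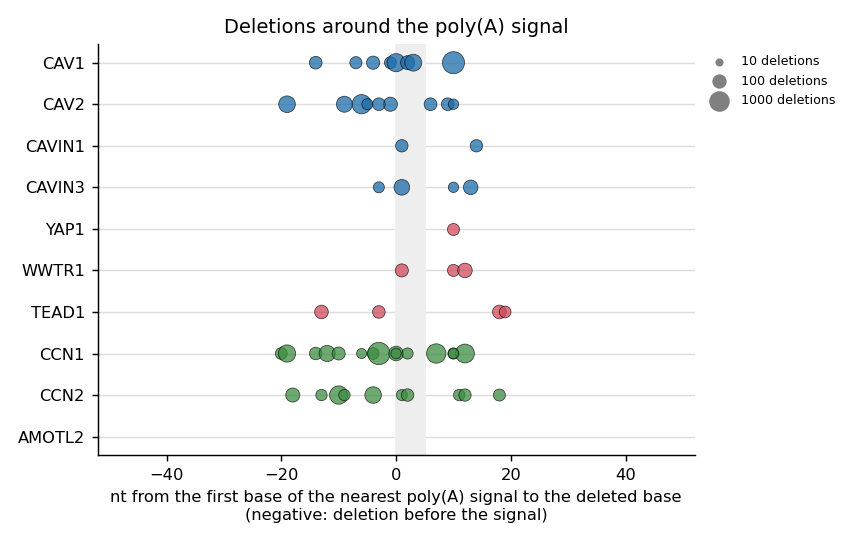
Each row is a gene and each circle a member site whose window holds AATAAA, placed by the distance in nt from the first base of the nearest signal to the deleted base. The grey band marks the 6 letters of the signal, and the diameter grows with the logarithm of the deletions. Deletions fall on both sides of the signal in CAV1, CAV2, CCN1 and CCN2, and AMOTL2 has no such site.

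The AUA motif that the study ties to RBMS3 was searched on the transcript strand as a 7-nt pattern. This is any base but C, followed by a base that is A or T, the letters ATA, again a base that is A or T, and a closing A. It was present in 43 of 119 member windows (36.1%), against 46.8% of the list. The motif can overlap a poly(A) signal, since AATAAA fits inside it. A match that did not contain AATAAA was present in 4 member windows (3.36%), against 14.8% of the list. Of the 4, 2 were in TEAD1, 1 in CAV2 and 1 in YAP1. CAV1, CAVIN1, CAVIN3 and AMOTL2 had no match in any window. Of the 43 windows, 13 were in CCN1, and 10 each in CAV2 and CCN2.

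Runs of A followed some member clusters that lacked AATAAA, of which the AMOTL2 cluster holds the variant ATTAAA. A run of at least 8 A within 60 nt downstream of the leading site was found for 6 of 32 member clusters (18.8%), against 7.79% of all clusters. These were the internal CAV1 cluster, the AMOTL2 cluster, the fourth TEAD1 cluster, the fifth TEAD1 cluster, and single intronic sites of TEAD1 and WWTR1. Restricted to 3′UTR clusters whose leading site was under 30%, it was 4 of 18 (22.2%), against 6.07%. The 6 clusters held 28 sites, 26 of them under 30%, and none of the 28 windows had AATAAA, whereas 56 of the other 91 member sites did. Windows within a cluster overlap, and 14 of the 28 sites lie in the internal CAV1 cluster. The same share over all listed sites followed by such runs is not given here, so how unusual this is cannot be judged. RNA was captured and primed through poly(A) in this protocol, and the part that the runs play in these sites was not tested.

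Other genes of the same pathways, from 3 pathway lists, were looked up among the sites. These lists too were chosen with earlier results of these data known, so their counts do not measure an enrichment. The share of all protein-coding genes with a site was 37.6%. Of 8 other caveola genes 3 had a site, close to that share. CAVIN2 had 4 sites, the leading one with 130 of 8016 tags deleted, and EHD1 and EHD2, which encode membrane-bending ATPases, had 1 each (116 of 2527 and 88 of 2081 tags). Of 19 other Hippo pathway genes 14 had a site, and in 11 of them a site was under 30%. Those with the most were PTPN14 and TAOK1 with 9 each, SAV1 with 8, AJUBA with 7 and MAP4K4 with 6. No site was listed in NF2, AMOT or the TEAD1 paralogs TEAD2, TEAD3 and TEAD4. Of 17 other YAP and TAZ targets 15 had a site, led by F3 with 25, NT5E with 20, THBS1 with 19 and ANKRD1 with 17, followed by CRIM1 and TGFB2 with 10 each. The most covered site of THBS1 had 108179 tags, above the 97102 of CAV1, its leading site was deleted in 1188 of 95108 tags, and none of its sites lay within 100 nt of an annotated end.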

How the data were processed

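CLIP-seq was performed by the authors on 2 biological replicates of MDA-MB-231 cells with FLAG-tagged RBMS3. Per the methods, unique molecular identifiers were appended to the reads, the CLIP Tool Kit aligned them to hg38 (the build also in the submitters' notes), and deletion sites were called on the pooled tags at a false discovery rate under 10% and a fold over 10 that is not defined further. Tool versions are not given in the sources used here. The deposited counts give, per site, the pooled tags with the deletion and, in a name field of other text, the tags that cover it. They are not normalized, and library totals were not analysed here, so depth is given per site. A pooled call can rest on 1 replicate. Intervals are 21 nt, and the centre was taken as the deleted base. Coordinates are from 1.

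Sites were placed on GENCODE release 44 by strand, with all annotated transcripts, in the order 3′UTR, 5′UTR, coding sequence, noncoding exon and intron. Deletion percentages have 95% Wilson intervals, ratios of tags 95% intervals from the binomial split, and maximal tags exact Poisson intervals. Motifs were searched in 51-nt windows, 25 nt to either side (3 with an N were left out), and A runs of at least 8 within 60 nt downstream were added after seeing the data. With 1 group, pooled values and no control list, no test between groups was made. All 10 genes are named. Of other pathway genes, the 5 with the most sites per list are named (ties by summed deletions), and TGFB2, tied in sites, was added after its value was seen. RBMS3 was left out because it came from a vector. The members and lists were chosen with earlier results of these data known. Functions were tested on simulated data. The software was matplotlib 3.10.9, pandas 2.3.3, scipy 1.17.1, numpy 2.4.6 and Python 3.11.15.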

Additional observations from a re-analysis of the deposited data

How the results depend on the processing

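Of 53 alternative values, 29 stayed close to those reported and 24 moved. Sites with the deletion in at least 10% of tags left 15 sites in 15 clusters and 6 members. Of these sites 66.7% were in 3′UTRs, 10% of those near an end, 6.67% were under 30%, 0% had AATAAA and 13.3% the AUA motif. A minimum of 20 deletions gave 21 clusters, 100% in 3′UTRs and 97.2% under 30%. A minimum of 50 gave 14 clusters, 100% in 3′UTRs, 75% near an end and 100% under 30%. The share near an end was 42.1% with representative transcripts and 51.8% within 50 nt. AATAAA was in 59.7% of windows with 50 nt on each side, in 34.4% with 1 window per cluster and, in an alternative added after seeing the data, in 61.5% without clusters followed by A runs, which also removed AMOTL2. The AUA motif was in 25% with 1 window per cluster, 13.4% with 10 nt on each side and 3.36% apart from AATAAA. Joining sites within 10 nt gave 51 clusters. No paired analysis was possible because the list pools both replicates. Sites of a cluster share tags and are not independent, and a gene without a listed site may have been too shallow for a call.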
